A study of Brachypodium distachyon with 89 samples.

Results

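The genes described here are the 41 genes of Brachypodium distachyon, of 24467 in the table, whose transcripts stood highest at dawn in undisturbed plants of both ecotypes studied, Bd21 and Bd21-3. They were chosen on normal growth (NG) libraries alone. In each ecotype the highest mean over the day had to lie at ZT0 or ZT24, to reach at least 15 CPM, and to be at least 4 times the lowest mean after 1 CPM was added to both. CPM is the read count of a gene scaled to a common library size, and ZT counts hours from lights on, so that ZT0 and ZT24 are successive dawns, ZT8 is midday, ZT16 is lights off and ZT20 is midnight. Of 6404 genes highest at a dawn in both ecotypes, 3824 reached the level and 41 also reached the fold. The NG values below describe this choice and are given with no test.

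RNA was sequenced from the aboveground tissue of young wild-type plants entrained to long days. Submerged (S) plants stood under tap water in opaque tanks from the evening before the first dawn, low light (LL) plants stood beside them in tanks without water at the same reduced light, and NG plants were left undisturbed. Each ecotype, treatment and ZT has 3 libraries of 5 pooled plants, except LL of Bd21 at ZT24 with 2. Plants collected at one time shared a tank, so tank and ZT cannot be told apart in S. Hours in treatment also rose with ZT in S and LL. Within a treatment, time of day and time in treatment thus cannot be told apart, although ZT0 and ZT24 share a time of day. The study asked whether the response to submergence changes over the day, and the comparisons below ask what LL and S did to the dawn peak of these genes.

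A plant anticipates dawn. In Arabidopsis, LHY and the related REVEILLE (RVE) MYB factors are made around dawn. LHY represses evening genes and is itself repressed through the day by the pseudo-response regulators, so that the loop turns once a day. Downstream of this clock, dawn is when leaves finish the breakdown of the starch stored the day before, prepare photosynthesis and antioxidants for light, and keep repressors of flowering high. Starch, sugar, light and oxygen status in turn feed back on many of these transcripts.

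Some members match genes of these roles. Of the 24 genes of the clock list 4 are members, and the other lists gave 1 or none. RVE2 (Bradi1g29680), LHY (Bradi3g16515), RVE1 (Bradi3g51960) and the homeodomain-like Bradi3g51757 are the 4 clock genes. CDF2 (Bradi2g09720) matches a Dof factor that represses flowering in Arabidopsis. BAM3 (Bradi3g33730) matches a chloroplast beta-amylase, an enzyme of starch breakdown, and BAM9 (Bradi1g62400) a second beta-amylase. VTC2 (Bradi4g22700) matches the GDP-galactose phosphorylase of ascorbate synthesis, RCA (Bradi4g09120) rubisco activase, MIOX1 (Bradi1g37870) myo-inositol oxygenase and CYP79B2 (Bradi5g00980) the cytochrome P450 that converts tryptophan to indole-3-acetaldoxime in Arabidopsis. Also among the 41 are the protein kinase CIPK12 (Bradi1g38340), the phloem protein homolog PP2-A13 (Bradi1g77430), WRKY26 (Bradi2g00280), MLO1 (Bradi3g46070) of the 7-transmembrane MLO family, SAG12 (Bradi1g08357), whose match is a senescence-associated protease, FPF1 (Bradi2g59830), OXS3 (Bradi3g51920) and the carnitine transporter homolog OCT2 (Bradi1g24770). Symbols are those of the best Arabidopsis match, which 18 members have, while 37 have a match. None of the 41 was in the lists of hypoxia, light-harvesting antenna, chlorophyll synthesis, sugar starvation, nitrate, guard cell, vascular or root genes.

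In NG the median of the members' mean levels was 126 CPM at ZT0, 29.2 at ZT8, 18.3 at ZT16, 46.2 at ZT20 and 146 at ZT24 in Bd21, and 118, 35.3, 21.9, 39.1 and 114 CPM in Bd21-3. The order of the levels at ZT0 began with LHY, followed by the glycosyl hydrolase Bradi2g27140, VTC2, BAM3 and Bradi3g51757. Just inside the fold limit stood CYP79B2 with 4.012 and FPF1 with 4.040 in the ecotype with the smaller fold, and just outside it Bradi1g19810, which matches a transcription elongation factor, with 3.864 and the glucosyl transferase UGT88A1 (Bradi2g49067) with 3.884. Just inside the level limit stood FPF1 at 15.4 CPM and the receptor-like kinase Bradi3g10600 at 21.7 CPM, and just outside it the kinase Bradi3g16730 at 14.1 CPM and ANAC102 (Bradi2g53260) at 14.5 CPM.

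One NG library went against its label and was left out. In replicate 3 of Bd21-3 at ZT8, 21 genes otherwise read only in Bd21 were at 20.8% of their Bd21 level, against 0.0367 to 1.58% in the other Bd21-3 libraries, and the 3 genes read only in Bd21-3 were at 72.2% of theirs. Its hypoxia list summed to 4689 CPM, against 1604 and 1756 CPM in the other NG libraries of that time. With it kept there were also 41 members, of which Bradi2g15490 and OXS3 were replaced by Bradi1g61560 and Bradi2g14790. Depth ran from 3896851 to 16044727 reads per library over 89 libraries, and the 3 treatments overlapped in depth.

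The highest mean stayed at a dawn in LL for most members and in S for fewer. The ZT with the highest mean, the zenith, lay at a dawn in LL for 39 members in Bd21 and 34 in Bd21-3, and for 33 in both. In S it lay at a dawn for 13 members in Bd21 and 15 in Bd21-3, for 9 in both ecotypes and for 22 in neither. Over all genes read in a treatment the zenith lay at a dawn for 46.5% and 49.9% in LL and for 52.6% and 53.3% in S, Bd21 first. In S the zenith of Bd21 was at ZT8 for 20 members, at ZT16 for 5 and at ZT20 for 3, and that of Bd21-3 at ZT8 for 9, at ZT16 for 11 and at ZT20 for 6, with the same ZT in both ecotypes for 22 members. The range from the lowest to the highest ZT was smaller in S than in LL for 30 members in Bd21 and 33 in Bd21-3. Its median over the members was 1.76 against 2.97 on the log2 scale in Bd21 and 1.61 against 2.62 in Bd21-3. Over all genes tested, the range of the mean log2 values had a median of 0.92 in S against 0.61 in LL in Bd21. In Bd21-3 these medians were 0.86 and 0.57. Both dawn means lay above the means of ZT8 and ZT16 for 39 and 34 members in NG, for 24 and 23 in LL and for 5 and 3 in S. The range was smaller in LL than in NG for 25 and 24 members. The rule asked for a dawn peak and a large range in NG, so a fall from NG can follow in part from that choice. For these counts the share of all genes was not counted. A zenith has no test of its own.

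**Figure D1:**
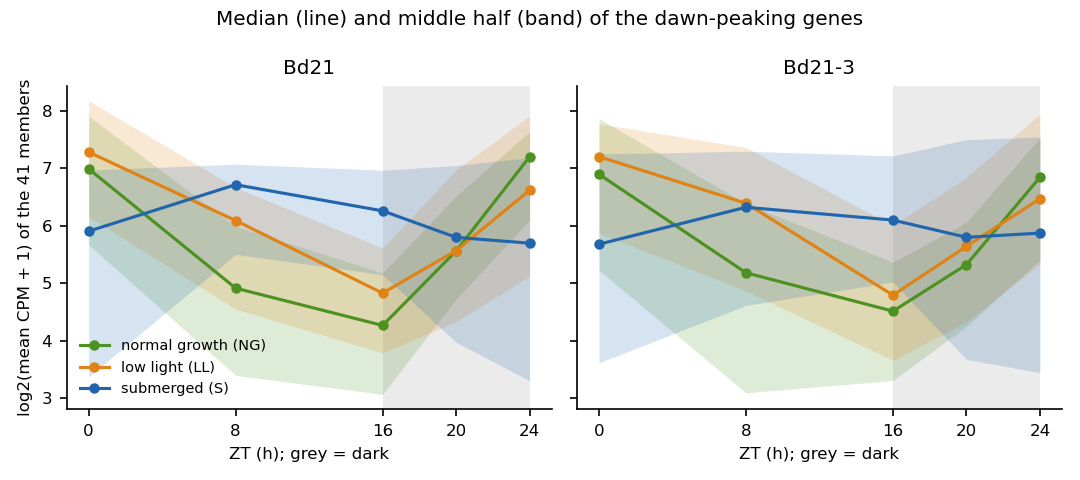
Median (line) and interquartile range (band) over the 41 members of log2(mean CPM + 1) at each ZT in hours, by ecotype, with the dark period in grey. NG and LL fall from ZT0 to ZT16 and rise again by ZT24, whereas the S median starts at 58.9 CPM in Bd21 and 50.2 CPM in Bd21-3 and is highest at ZT8.

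The dawn peak was measured in each treatment as the dawn contrast, the mean log2(CPM + 1) of ZT0 and ZT24 minus that of ZT8 and ZT16. A gene was called, by the limits of the study's methods, where the absolute log2 difference was at least 1.5, the limma p-value adjusted over all 24103 genes tested was under 5e-06 and the mean reached 15 CPM in a group compared. All 41 members were among the genes tested. In LL, whose libraries the choice of members did not use, the contrast was called higher at dawn for 16 members in Bd21, where 0.241% of all genes were, and for 13 in Bd21-3, where 0.170% were. The 12 called in both ecotypes were LHY, RVE1, RVE2, CDF2, PP2-A13, WRKY26 and 6 genes without a symbol, Bradi1g06696, Bradi1g19010, Bradi1g76190, Bradi2g05600, Bradi2g16680 and the U-box kinase Bradi4g38690. The median contrast of the members in LL was 1.58 in Bd21 and 1.11 in Bd21-3, beside -0.01 for all genes in both. In S no member was called higher at dawn in either ecotype, beside 0.0332% and 0.0747% of all genes, and 4 members in Bd21 and 6 in Bd21-3 had an unadjusted limma p under 0.05 in that direction.

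In S the contrast ran the other way for part of the genes. It was called lower at dawn than by day for 8 members in Bd21, against 1.34% of all genes, and for 4 in Bd21-3, against 0.531%. Called in both were LHY, CIPK12 and Bradi3g51757, in Bd21 also RVE1, RVE2, CDF2, CYP79B2 and the MtN3 family sugar transporter homolog Bradi2g47540, and in Bd21-3 also FPF1. The contrast itself was lower in S than in LL for 20 members in Bd21, where 1.03% of all genes were called so, and for 18 in Bd21-3, where 0.548% were. With ZT24 alone as dawn the 18 of Bd21-3 became 8, of which 7 were shared, and the 20 of Bd21 became 17. The change was below 0 for 38 and 40 of the 41 members, with medians of -2.02 and -1.68. The 13 called in both ecotypes were RVE1, RVE2, LHY, CDF2, CIPK12, PP2-A13, VTC2, Bradi1g19010, Bradi1g76190, Bradi2g05600, Bradi2g15490, Bradi2g47540 and Bradi3g51757.

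**Figure D2:**
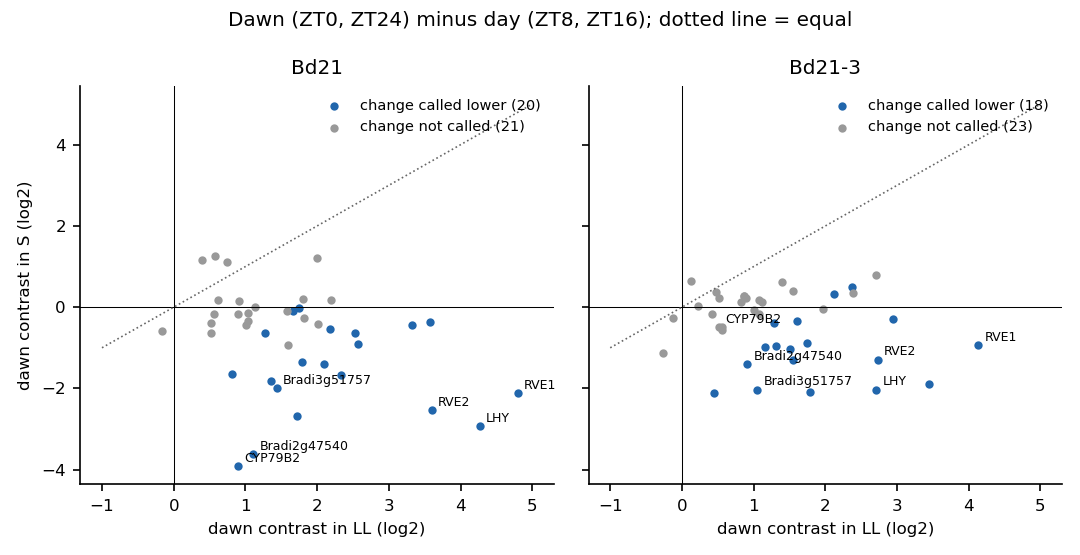
Dawn contrast in S (vertical, log2) against that in LL (horizontal, log2), 1 point per member, by ecotype, with blue where the change from LL to S was called and a dotted line where both are equal. Most points lie right of 0 and below the line, with 20 blue points in Bd21 and 18 in Bd21-3.

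Set against LL at the same ZT, more members were lower than higher in S at dawn. At ZT0, 22 members were lower in S and 3 higher in Bd21, beside 3.02% and 3.43% of all genes, and 21 were lower and 3 higher in Bd21-3, beside 4.30% and 4.25%. The 20 members lower at ZT0 in both ecotypes included the 4 clock genes, CDF2, CIPK12, PP2-A13, VTC2, RCA, CYP79B2, SAG12 and FPF1, and the 2 higher in both were Bradi3g10598 and Bradi3g10600. At ZT16 more members were higher than lower. In Bd21, 12 members were higher in S and 1 lower, beside 3.87% and 3.93% of all genes, and in Bd21-3, 14 were higher and 3 lower, beside 3.74% and 4.67%. The medians of the members were -2.00 and -1.70 at ZT0 and 1.19 and 1.05 at ZT16 in Bd21 and Bd21-3.

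The times between were mixed. At ZT8, 8 members were higher and 6 lower in Bd21 (3.66% and 2.90% of all genes), and 7 were higher and 7 lower in Bd21-3 (3.23% and 5.03%). At ZT20, 6 were higher and 7 lower in Bd21 (2.71% and 4.40%), and 7 were higher and 6 lower in Bd21-3 (3.30% and 5.53%). At the second dawn, ZT24, 3 members were higher and 11 lower in Bd21 (2.65% and 4.15%), and 3 were higher and 16 lower in Bd21-3 (2.86% and 4.70%). All 11 of Bd21 were also among the 16 of Bd21-3. The median was -1.36 in Bd21 and -1.38 in Bd21-3. Leaving out 1 library moved the 6 members lower in Bd21 at ZT8 to 3, which held without LL replicate 2, LL replicate 3 or S replicate 1 of that time, and the 1 member lower in Bd21 at ZT16, SAG12, to 0 without LL replicate 2 of ZT16.

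**Figure D3:**
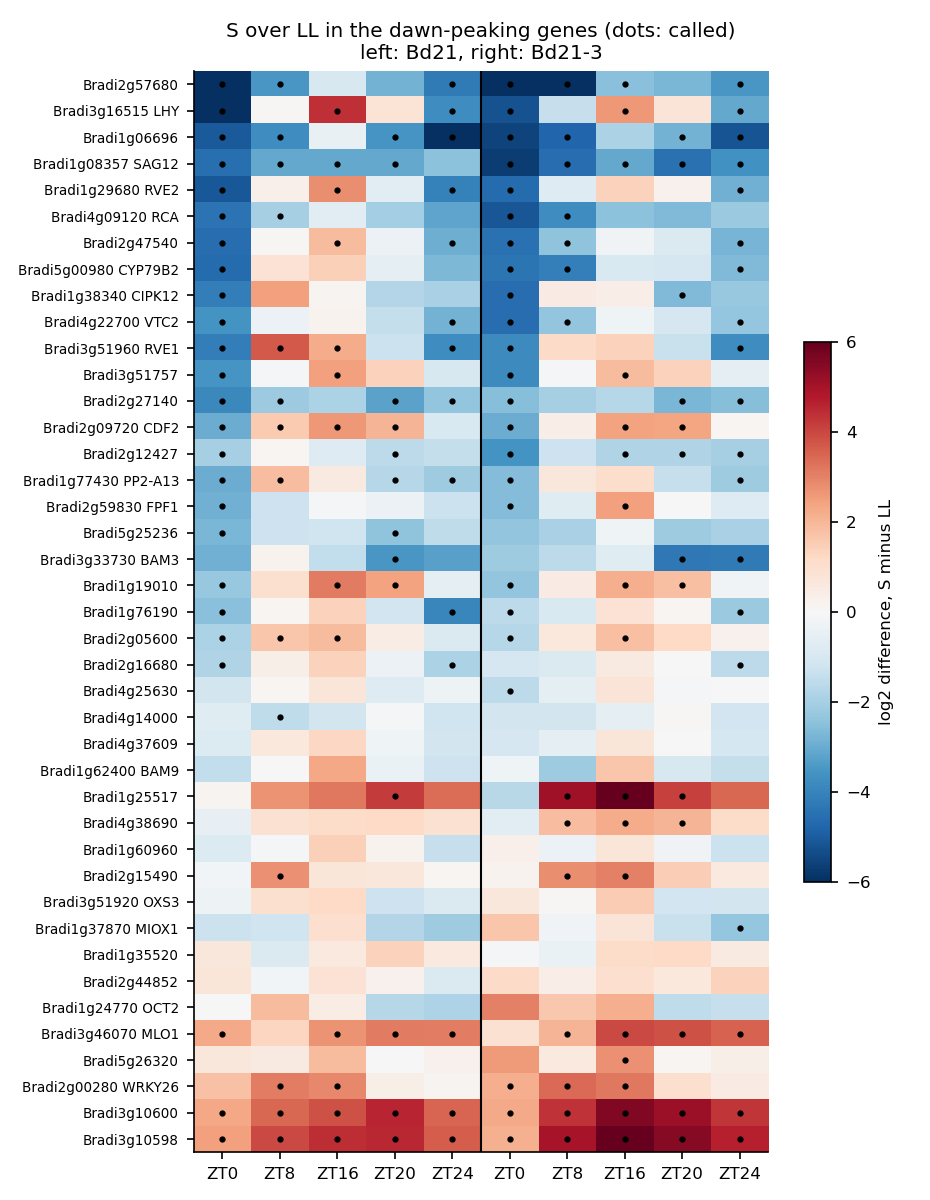
Log2 difference of S minus LL for the 41 members (rows, ordered by their mean at ZT0) at each ZT in Bd21 (left) and Bd21-3 (right), blue where S is lower, red where S is higher, and a dot where the difference was called. At ZT0, 22 and 21 members carry a dot on blue, and at ZT16, 12 and 14 carry a dot on red.

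By these calls the members fell into groups that were formed after the values were seen. Lower in S at some ZT and higher at another were 10 members, of which LHY, Bradi3g51757, CDF2, Bradi1g19010 and Bradi2g05600 were lower at ZT0 and higher at ZT16 in both ecotypes. Lower in both ecotypes and never higher were 12, higher in both and never lower were 6, and 7 were called at no ZT in either ecotype. The remaining members, MIOX1, Bradi4g14000, Bradi4g25630, Bradi4g38690, Bradi5g25236 and Bradi5g26320, were called in 1 ecotype.

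The 4 clock factors were lower in S than in LL at the first dawn in both ecotypes, and all were higher at lights off in Bd21, LHY and Bradi3g51757 also in Bd21-3. LHY (Bradi3g16515), the most abundant member, stood at 4302, 3431 and 3696 CPM in NG of Bd21 at ZT0 and at 3151, 3354 and 3748 CPM in LL. In S the libraries of that time held 61.3, 51.2 and 29.8 CPM, a log2 difference from LL of -6.20 ± 0.19 (SE; limma adjusted p = 7.4e-37). All S libraries thus lay far under all LL libraries. At ZT8 the S libraries stood at 988, 937 and 715 CPM, beside 992, 866 and 669 CPM in LL, and the groups overlapped. At ZT16 LHY was at 28.9, 23.9 and 29.4 CPM in LL and at 648, 626 and 517 CPM in S, a difference of 4.40 ± 0.19 (limma adjusted p = 3.7e-29). At ZT24 S held 194, 174 and 216 CPM, while LL stood at 2472 and 2674 CPM.

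In Bd21-3 LHY (Bradi3g16515) had the same order at both dawns and at lights off. Its LL libraries held 2943, 2728 and 3498 CPM at ZT0, against 71.6, 69.3 and 105 CPM in S (-5.22 ± 0.19, limma adjusted p = 1.7e-33). At ZT8, LL stood at 1557, 1968 and 2219 CPM and S at 869, 728 and 608 CPM, so that the groups did not overlap, but the difference of -1.38 ± 0.19 stayed under the limit of size. At ZT16, S held 475, 432 and 435 CPM and LL 79.3, 81.7 and 61.2 CPM (2.59 ± 0.19, limma adjusted p = 1.4e-18). The dawn contrast of LHY was 4.27 ± 0.14 in LL and -2.92 ± 0.14 in S in Bd21, and 2.71 ± 0.14 and -2.03 ± 0.14 in Bd21-3.

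RVE2 (Bradi1g29680) had the same order at a lower level. In Bd21 it stood at 293, 317 and 391 CPM in LL at ZT0 and at 10.6, 11.1 and 5.54 CPM in S (-5.10 ± 0.16, limma adjusted p = 7.4e-37), with no overlap. At ZT16 it was at 10.9, 8.45 and 10.1 CPM in LL and 71.4, 84.4 and 67.5 CPM in S (2.80 ± 0.16). At the second dawn RVE2 was at 403 and 401 CPM in LL and 20.2, 26.7 and 22.6 CPM in S. In Bd21-3 the ZT0 libraries held 288, 278 and 318 CPM in LL and 9.42, 11.9 and 12.5 CPM in S (-4.60 ± 0.16), and its difference at ZT16 of 1.36 ± 0.16 stayed under the limit of size.

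RVE1 (Bradi3g51960) had the largest dawn contrast of these factors in LL, with 4.80 ± 0.28 in Bd21 and 4.13 ± 0.26 in Bd21-3. In Arabidopsis RVE1 links the clock to auxin synthesis. In Bd21 it stood at 168, 139 and 188 CPM at ZT0 and 2.46, 4.96 and 2.46 CPM at ZT8 in LL, and at 12.1, 12.9 and 3.22 CPM at ZT0 and 37.2, 70.2 and 54.6 CPM at ZT8 in S. Its order between dawn and midday was therefore turned around, with differences from LL of -4.17 ± 0.37 at ZT0 (limma adjusted p = 2.5e-15) and 3.68 ± 0.37 at ZT8 (limma adjusted p = 2.8e-13). In Bd21-3 the S libraries held 6.79, 11.5 and 19.7 CPM at ZT0 and 17.3, 18.4 and 34.9 CPM at ZT8, where the difference from LL of 1.17 ± 0.37 was not called. At ZT24 RVE1 was lower in S in both ecotypes, with differences of -3.74 ± 0.41 and -3.73 ± 0.37.

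Bradi3g51757, the homeodomain-like gene of the clock list, stood at 336, 386 and 423 CPM in LL of Bd21 at ZT0 against 36.5, 28.4 and 31.8 CPM in S (-3.52 ± 0.15, limma adjusted p = 1.2e-30), and at 341, 360 and 417 CPM against 24.8, 26.5 and 23.9 CPM in Bd21-3 (-3.84 ± 0.15, limma adjusted p = 8.6e-33). At ZT16 the S libraries had 310, 233 and 276 CPM in Bd21 and 256, 209 and 254 CPM in Bd21-3, above every LL library of that time, which held 43.7, 44.8 and 55.2 CPM and 77.3, 59.6 and 52.4 CPM. At ZT24 its difference from LL was -0.94 ± 0.16 and -0.55 ± 0.15 in Bd21 and Bd21-3, under the limit of size in both.

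**Figure D4:**
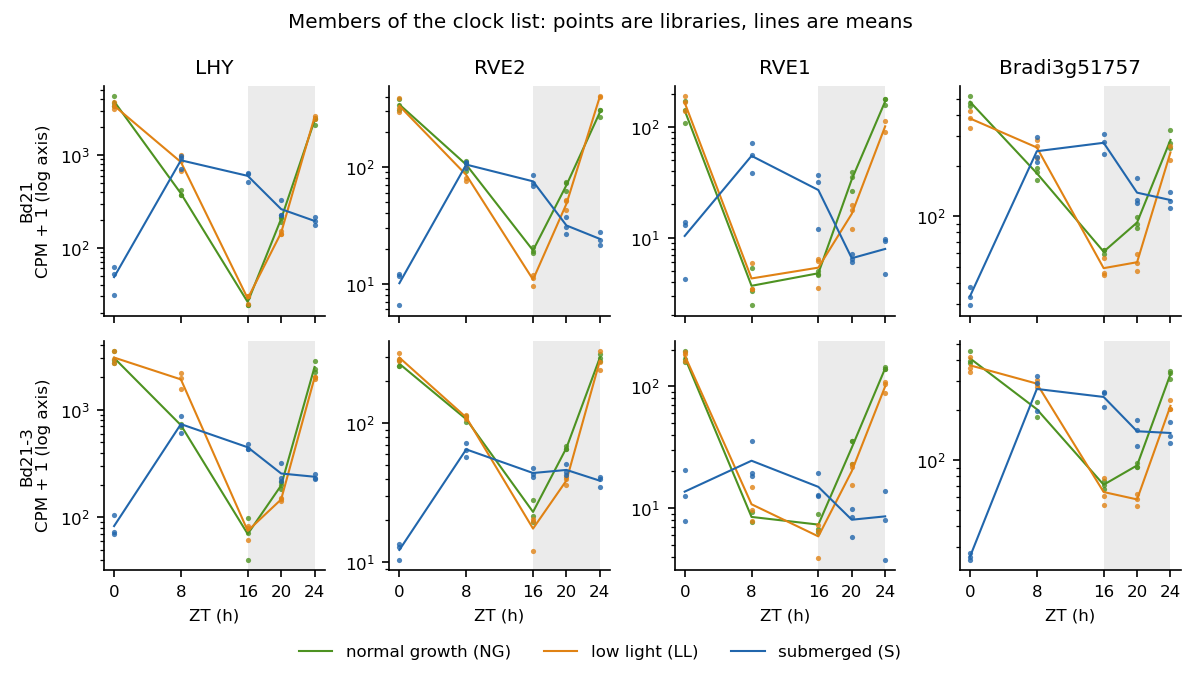
CPM + 1 on a log axis against ZT in hours for the 4 members of the clock list, by ecotype (rows), with points for libraries, lines for means and the dark period in grey. At ZT0 the S libraries of LHY lie between 29.8 and 105 CPM and those of LL between 2728 and 3748 CPM, whereas at ZT16 the S libraries lie above those of LL.

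More of the other clock genes were higher than lower in S at the first dawn, and the second dawn was not counted for them. Of the 20 other tested genes of the clock list, 7 were higher and 1 lower in S than in LL at ZT0 in Bd21, and 7 were higher and 0 lower in Bd21-3. The change of the dawn contrast was called higher for 8 and lower for 2 in Bd21 and higher for 7 and lower for 1 in Bd21-3. Of all genes 1.03% and 0.548% were called lower in this change, and the share called higher is not given here. Bradi5g19380, a second match of RVE1, was among the genes called in this change in both ecotypes. Called in both tests and both ecotypes were matches of the pseudo-response regulators APRR7 (Bradi1g65910) and APRR5 (Bradi4g24967), day-phase repressors of LHY in Arabidopsis, Bradi1g16490, which the table also pairs with APRR7 but which has elsewhere been classed with PRR3, and matches of COR27 (Bradi1g72390) and the photoreceptor ADO3 (Bradi4g16630), with Bradi2g05226. Across the 30 group means of log2(CPM + 1) the members most like LHY were RVE2 with a Pearson r of 0.95, Bradi3g51757 with 0.91, Bradi4g37609 with 0.90, Bradi2g16680 with 0.87 and CDF2 with 0.86. These points share treatments and times, and r is given as a description.

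CDF2 (Bradi2g09720) was lower in S at ZT0 and higher at ZT16 and ZT20 in both ecotypes. In Bd21 it stood at 134, 139 and 162 CPM in LL at ZT0 and 16.62, 21.27 and 14.95 CPM in S (-2.98 ± 0.14, limma adjusted p = 3.9e-27). At ZT16 CDF2 was higher in S, with 11.8, 11.2 and 15.5 CPM in LL and 61.7, 87.6 and 103 CPM in S (2.60 ± 0.14), and at ZT20 by 2.06 ± 0.14. In Bd21-3 the differences were -2.96 ± 0.14 at ZT0, 2.43 ± 0.14 at ZT16 and 2.35 ± 0.14 at ZT20, all called. At ZT24 the S libraries of Bd21-3 held 70.3, 68.3 and 67.1 CPM and the LL libraries 64.7, 62.6 and 64.4 CPM, close to each other in level. In Bd21 the S libraries of that time held 41.3, 53.7 and 47.6 CPM, under the 91.8 and 85.8 CPM of LL, but CDF2 was not called there.

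The HAD family hydrolase Bradi1g19010 and the 2-oxoglutarate dependent oxygenase Bradi2g05600 were also lower in S at ZT0 and higher at ZT16 in both ecotypes. Bradi1g19010 was higher at ZT20 too, by 2.40 ± 0.20 in Bd21 and 1.79 ± 0.20 in Bd21-3, where Bradi2g05600 was not called, and Bradi2g05600 was higher at ZT8 in Bd21, by 1.68 ± 0.16. Bradi1g19010 had differences from LL of -2.29 ± 0.20 at ZT0 and 3.13 ± 0.20 at ZT16 in Bd21, while Bd21-3 had -2.38 ± 0.20 and 2.19 ± 0.20. For Bradi2g05600 they were -1.88 ± 0.16 and 1.89 ± 0.16 in Bd21 and -1.70 ± 0.16 and 1.82 ± 0.16 in Bd21-3. In S, Bradi2g05600 lay between 62.6 and 81.8 CPM in the libraries of ZT0 and between 101 and 169 CPM in those of ZT8, without overlap.

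CIPK12 and PP2-A13 were lower in S at the first dawn and were not called at lights off. CIPK12 (Bradi1g38340), a kinase that binds calcium sensors of the CBL family, stood at 107, 74.2 and 71.0 CPM in LL of Bd21 at ZT0 and 3.57, 5.44 and 2.45 CPM in S (-4.16 ± 0.46, limma adjusted p = 8.5e-12). In Bd21-3 the values were 92.2, 127 and 104 CPM in LL and 4.02, 1.44 and 6.44 CPM in S (-4.58 ± 0.46, limma adjusted p = 2.0e-13). PP2-A13 (Bradi1g77430) stood at 172, 177 and 183 CPM against 29.4, 26.3 and 12.9 CPM in Bd21 (-2.98 ± 0.24) and at 179, 160 and 185 CPM against 27.8, 25.9 and 31.6 CPM in Bd21-3 (-2.58 ± 0.24). At ZT8 PP2-A13 was higher in S in Bd21, by 1.87 ± 0.24, and at ZT24 it was again lower in both ecotypes.

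Among the 12 members lower in S and never higher, the largest difference at ZT0 was that of Bradi2g57680, a gene of unknown function. In Bd21 it stood at 141, 125 and 196 CPM in LL at ZT0 and 0.687, 0.495 and 0.902 CPM in S (-6.50 ± 0.26, limma adjusted p = 4.6e-31). In Bd21-3 it stood at 110, 132 and 148 CPM in LL and 1.52, 0 and 1.46 CPM in S (-6.14 ± 0.26, limma adjusted p = 4.5e-30). The S values rest on few reads, and the pseudocount of 1 CPM shrinks such differences. At ZT8 LL of Bd21-3 stood at 236, 281 and 324 CPM, while S stayed at 1.27, 1.54 and 1.44 CPM, and in Bd21 S held 7.78, 7.74 and 6.62 CPM at that time.

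VTC2 (Bradi4g22700) was lower in S at both dawns. Its NG libraries of ZT0 held 604, 600 and 615 CPM in Bd21 and 737, 667 and 684 CPM in Bd21-3. In LL they held 442, 452 and 610 CPM and 502, 549 and 537 CPM, and in S 38.2, 37.7 and 45.2 CPM and 21.5, 19.3 and 22.5 CPM. The differences of S from LL were -3.59 ± 0.18 (limma adjusted p = 9.6e-27) and -4.59 ± 0.18 (limma adjusted p = 2.1e-32), and VTC2 was lower again at ZT24 in both ecotypes, with -2.84 ± 0.20 and -2.30 ± 0.18. At ZT8 the difference was -0.37 ± 0.18 in Bd21 and -2.37 ± 0.18, which was called, in Bd21-3.

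RCA (Bradi4g09120) was lower in S at ZT0 and ZT8 in both ecotypes. At ZT0 it stood at 73.7, 60.7 and 113 CPM in LL and 3.43, 3.46 and 1.67 CPM in S of Bd21 (-4.43 ± 0.35) and at 94.6, 131 and 93.5 CPM and 1.25, 2.06 and 3.04 CPM in Bd21-3 (-5.13 ± 0.35). A neighbouring identifier, Bradi4g09125, has the same Arabidopsis match and a median of 11336.7 CPM over the NG libraries, against 58.57 CPM for Bradi4g09120, so reads may be divided between the 2 and the values of RCA here are uncertain. RCA was also the member of the leaf mesophyll list of 6 genes, all of which match RCA or the small subunit of rubisco.

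BAM3 (Bradi3g33730) was lower in S at ZT20 in both ecotypes. At ZT20 it stood at 418, 195 and 333 CPM in LL and 45.2, 18.3 and 21.6 CPM in S of Bd21 (-3.47 ± 0.59, limma adjusted p = 9.1e-07), and at 276, 615 and 577 CPM and 58.0, 13.8 and 13.5 CPM in Bd21-3 (-4.31 ± 0.59, limma adjusted p = 3.8e-09). At ZT0 the LL libraries held 958, 674 and 857 CPM and the S libraries 130, 203 and 53.1 CPM in Bd21, and 599, 801 and 533 CPM against 114, 135 and 204 CPM in Bd21-3. The groups did not overlap at that time, but differences of -2.86 ± 0.59 (limma adjusted p = 3.7e-05) and -2.11 ± 0.59 were not called, since the libraries of a group differed widely in this gene. Of the 20 other tested genes of starch breakdown, 1 was higher and 0 lower in S at ZT0 in Bd21, and 1 was higher and 1 lower in Bd21-3.

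Bradi2g27140, a glycosyl hydrolase and the second most abundant member, was lower in S in both ecotypes at ZT0, ZT20 and ZT24. At ZT0 it stood at 3085, 2832 and 2399 CPM in LL and 214, 277 and 112 CPM in S of Bd21 (-3.87 ± 0.38) and at 1983, 1412 and 1414 CPM and 233, 245 and 332 CPM in Bd21-3 (-2.56 ± 0.38). Bradi1g06696, which has no Arabidopsis match, stood at 291, 286 and 336 CPM in LL and 9.20, 8.41 and 6.96 CPM in S of Bd21 at ZT0, and at 0.0684, 0.356 and 0.241 CPM in S at ZT24. Its difference from LL was -5.06 ± 0.35 at ZT0 and -6.09 ± 0.39 at ZT24 in Bd21, and -5.57 ± 0.35 and -5.19 ± 0.35 in Bd21-3.

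SAG12 (Bradi1g08357) was lower in S at 4 ZTs in Bd21 and at all 5 in Bd21-3. Its S libraries lay between 1.496 and 13.2 CPM, and its LL libraries between 19.3 and 242 CPM, without overlap. SAG12 is a marker of leaf senescence in Arabidopsis, where it is induced with age. The neutral invertase homolog Bradi2g12427, of a family of enzymes that split sucrose, was lower in S at ZT0 with differences of -2.00 ± 0.15 in Bd21 and -3.59 ± 0.15 in Bd21-3. Bradi1g76190 and Bradi2g16680 were lower at ZT24, with -3.91 ± 0.31 and -1.89 ± 0.19 in Bd21 and -2.24 ± 0.28 and -1.59 ± 0.17 in Bd21-3.

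Another 6 members were higher in S in both ecotypes, although they too peaked at dawn in NG. MLO1 (Bradi3g46070), whose barley relative Mlo is known for susceptibility to powdery mildew, was the 1 member with a symbol called higher at the same dawn in both ecotypes. At ZT24 it stood at 53.9 and 58.1 CPM in LL and 365, 509 and 578 CPM in S of Bd21 (3.06 ± 0.27, limma adjusted p = 3.8e-15) and at 47.5, 40.9 and 30.0 CPM and 468, 498 and 412 CPM in Bd21-3 (3.53 ± 0.24, limma adjusted p = 5.7e-20). At ZT0 the S libraries of Bd21 held 284, 309 and 287 CPM and those of Bd21-3 121, 127 and 106 CPM, with differences from LL of 2.29 ± 0.24 and 0.90 ± 0.24, the latter not called. Its change between ZTs in S was called in both ecotypes, with the highest means at ZT24 in Bd21 and at ZT20 in Bd21-3.

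The adjacent identifiers Bradi3g10598 and Bradi3g10600 were higher in S at all 5 ZTs in both ecotypes. Bradi3g10600 matches a leucine-rich repeat kinase and Bradi3g10598 has no match, and reads may be divided between these neighbours. Bradi3g10598 stood between 7.61 and 43.7 CPM in the LL libraries and between 145 and 819 CPM in the S libraries. Its difference from LL was 2.47 ± 0.18 at ZT0 and 4.41 ± 0.18 at ZT16 in Bd21, while Bd21-3 had 2.15 ± 0.18 and 6.37 ± 0.18. Bradi3g10600 had 3.80 ± 0.24 at ZT16 in Bd21 and 5.56 ± 0.24 in Bd21-3.

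WRKY26 (Bradi2g00280) had its zenith in S at ZT0 in both ecotypes. At ZT0 it stood at 77.0, 61.2 and 73.1 CPM in LL and 242, 298 and 182 CPM in S of Bd21, a difference of 1.74 ± 0.37 that was not called (limma adjusted p = 7.3e-05), and at 55.0, 52.9 and 64.9 CPM and 223, 230 and 344 CPM in Bd21-3, where 2.16 ± 0.37 was called (limma adjusted p = 1.2e-06). At ZT8 and ZT16 it was higher in S in both ecotypes, by 2.89 to 3.38. At ZT24 the S libraries held 45.7, 70.0 and 33.7 CPM in Bd21, and the groups overlapped. The P-loop hydrolase Bradi2g15490 was higher at ZT8 in both, by 2.74 ± 0.18 and 2.79 ± 0.18, with S libraries between 398 and 593 CPM against 67.7 to 87.6 CPM in LL. The glycosyl hydrolase Bradi1g25517 was higher at ZT20 in both, by 4.20 ± 0.65 and 4.08 ± 0.65.

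**Figure D5:**
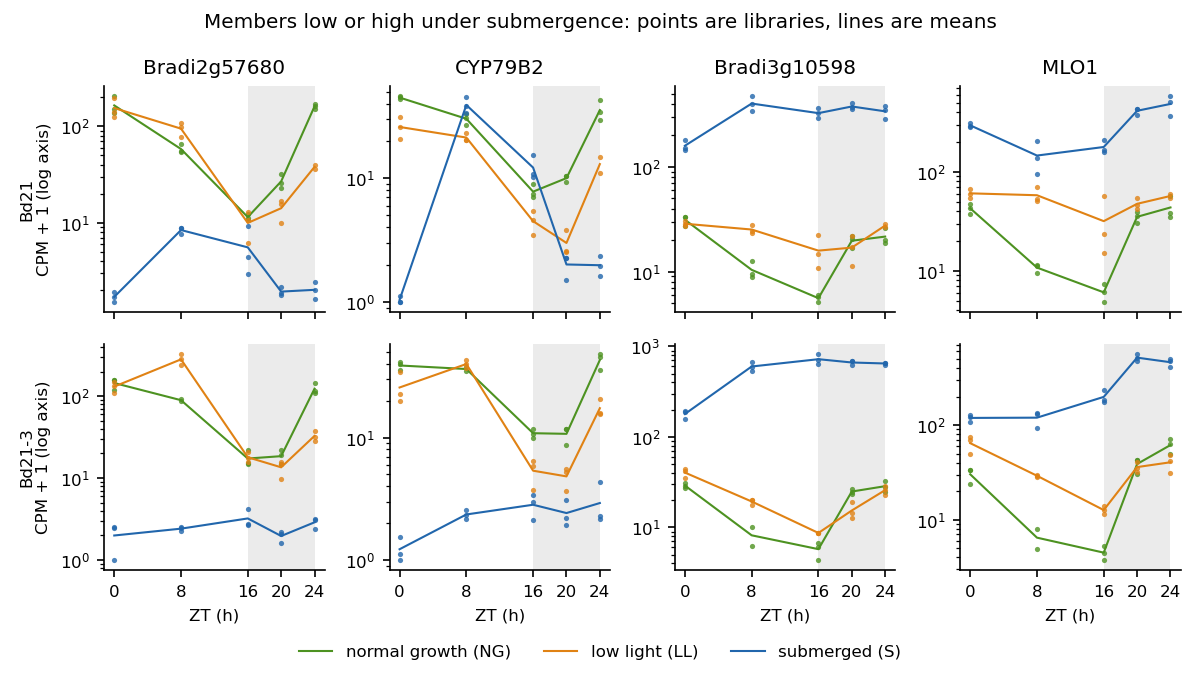
CPM + 1 on a log axis against ZT in hours for 2 members lower in S at ZT0 (Bradi2g57680, CYP79B2) and 2 higher in S at ZT24 (Bradi3g10598, MLO1), by ecotype (rows), with points for libraries, lines for means and the dark period in grey. At ZT8 the S libraries of CYP79B2 lie between 32.3 and 44.6 CPM in Bd21 and between 1.16 and 1.57 CPM in Bd21-3.

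The 7 members called at no ZT were OCT2, BAM9, OXS3, Bradi1g35520, Bradi1g60960, Bradi2g44852 and Bradi4g37609. OCT2, BAM9 and OXS3 had standard errors of 0.54 to 0.74 on the log2 scale for S against LL, so that differences such as 3.02 ± 0.67 for OCT2 (Bradi1g24770) at ZT0 in Bd21-3 (limma adjusted p = 9.7e-05) did not pass. Bradi1g60960, a WD40 repeat protein, had its zenith in S at the first dawn, with 101, 98.6 and 72.0 CPM at ZT0 in Bd21 and 183, 187 and 177 CPM in Bd21-3. At ZT8 its S libraries held 47.92, 76.45 and 81.75 CPM and 66.16, 116.8 and 98.23 CPM. At the second dawn, ZT24, they held 37.7, 36.2 and 32.6 CPM and 40.1, 27.0 and 38.0 CPM, under every S library of ZT8. Bradi1g35520, an alpha/beta hydrolase, stood in S of Bd21 at 90.8, 86.7 and 109 CPM at ZT0 and 29.4, 26.5 and 26.6 CPM at ZT8. Its dawn contrast in S of 1.16 ± 0.13 in Bd21 had a limma adjusted p of 5.9e-11 and lay under the limit of size. Bradi2g44852, which has no Arabidopsis match, ranged from 0.7458 to 85.94 CPM over the NG libraries, with standard errors of 0.87 to 0.97, and its LL and S libraries overlapped. Bradi1g60960 and Bradi4g37609 were called in Bd21 for the change of the dawn contrast, with -1.77 ± 0.20 and -1.90 ± 0.17.

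The members called in 1 ecotype were lower in S in 4 cases and higher in 2. In Bd21-3 at ZT20 the U-box kinase Bradi4g38690 stood at 62.9, 46.8 and 52.6 CPM in LL and 204, 262 and 215 CPM in S (2.05 ± 0.21), and it was also higher at ZT8 and ZT16. Bradi5g26320, which matches an aluminium induced protein, stood at 61.4, 108 and 268 CPM in LL and 684, 1141 and 714 CPM in S of Bd21-3 at ZT16 (2.75 ± 0.49). The groups of both genes did not overlap there. The leucine-rich repeat kinase Bradi4g14000 was lower at ZT8 in Bd21 (-1.53 ± 0.21), Bradi4g25630, related to methyltransferases, at ZT0 in Bd21-3 (-1.59 ± 0.20), and the F-box-like Bradi5g25236 at ZT0 and ZT20 in Bd21 (-2.72 ± 0.44 and -2.41 ± 0.44). FPF1 (Bradi2g59830), which promotes flowering in Arabidopsis, was lower at ZT0 in both ecotypes, with -2.90 ± 0.36 and -2.62 ± 0.36, and higher at ZT16 in Bd21-3, by 2.45 ± 0.36. Whether the ecotypes differ at single ZTs was not tested.

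The values of LL against NG are a description only. The rule chose genes high at dawn and low at another time in these same NG values. A rise over NG by day can follow in part from that choice, and the share of all genes was not counted. At ZT8 the members stood higher in LL than in NG, with a median log2 difference of 1.04 in Bd21 and 0.99 in Bd21-3 and with 22 and 20 members at least 2 times above NG. At ZT24 the medians were -0.21 and -0.19. MIOX1 (Bradi1g37870), the first enzyme of the breakdown of inositol, stood at 50.3, 58.8 and 93.3 CPM in NG of Bd21 at ZT24 and at 744 and 553 CPM in LL, and at 24.2, 57.0 and 25.4 CPM and 683, 747 and 751 CPM in Bd21-3. At ZT0 its LL libraries of Bd21-3 held 53.7, 39.5 and 29.7 CPM, so that within LL the second dawn was above the first by 4.15 ± 0.35 (limma adjusted p = 9.5e-15), and S was lower than LL at ZT24 (-2.30 ± 0.35).

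The 2 dawns were compared within LL and within S, where the choice of members has no part. In LL the second dawn was called lower than the first for 2 members in Bd21, Bradi2g57680 and RCA, and for these with FPF1 and VTC2 in Bd21-3, 4 in all, beside 0.253% and 0.514% of all genes. RCA (Bradi4g09120) went from 94.6, 131 and 93.5 CPM to 16.9, 9.19 and 5.87 CPM in Bd21-3 (-3.30 ± 0.35, limma adjusted p = 1.7e-11). In Bd21 these 2 calls became 1 without LL replicate 1 of ZT0 and 0 without LL replicate 3 of ZT0 or either LL replicate of ZT24. In S the second dawn was higher than the first for 4 members in Bd21 and 9 in Bd21-3, beside 2.08% and 2.41% of all genes. LHY (Bradi3g16515), Bradi3g51757 and the kinase Bradi4g38690 were among both, with 2.07 ± 0.19, 1.91 ± 0.15 and 1.86 ± 0.21 in Bd21 and 1.55 ± 0.19, 2.47 ± 0.15 and 2.52 ± 0.21 in Bd21-3. At ZT24 LHY was still lower than LL, with differences of -3.72 ± 0.22 and -3.06 ± 0.19.

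Changes between the 5 ZTs were called by an F test, where the group means spanned 1.5 or more in log2, for 26 members in Bd21 and 29 in Bd21-3 in LL, beside 2.44% and 2.55% of all genes. In S they were called for 17 and 15 members, beside 11.3% and 10.2% of all genes. Fewer members were called in S than in LL, while more of all genes were. This was not particular to the dawn genes. Of the 104 genes chosen by the same rule for midday, 74 were called in LL and 60 in S in Bd21. In Bd21-3 these were 74 and 52. Of the 44 evening and night genes, 18 were called in LL and 17 in S in Bd21, and 19 and 16 in Bd21-3. The 9 members called in S in both ecotypes were LHY, RVE2, Bradi3g51757, CDF2, CIPK12, MLO1, VTC2, Bradi2g47540 and Bradi4g38690.

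The change of the dawn contrast from LL to S differed between the ecotypes for 5 members, beside 0.0539% of all genes called so, and was further below 0 in Bd21 for each. With ZT24 alone or ZT0 alone as dawn, or with ZT20 added to the day, 2 members were called, and which 2 is not given here. CYP79B2 (Bradi5g00980) had a difference of 3.81 ± 0.32 between the ecotypes (limma adjusted p = 1.7e-13). At ZT0 its S libraries held 0, 0 and 0.129 CPM in Bd21 and 0.554, 0 and 0.121 CPM in Bd21-3, against 24.8, 19.9 and 30.0 CPM and 19.1, 21.7 and 33.2 CPM in LL. At ZT8 Bd21 held 37.0, 44.6 and 32.3 CPM in S, above the 19.2, 22.3 and 19.3 CPM of LL, while Bd21-3 stood at 1.16, 1.34 and 1.57 CPM, far under the 36.3, 38.7 and 41.7 CPM of LL.

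Bradi2g57680 had an ecotype difference of 3.02 ± 0.38 (limma adjusted p = 9.0e-08), and its contrast in LL was 1.35 ± 0.20 in Bd21 and -0.12 ± 0.19 in Bd21-3. LHY (Bradi3g16515) followed with 2.45 ± 0.28, Bradi2g47540 with 2.42 ± 0.29 and RVE2 (Bradi1g29680) with 2.11 ± 0.23. Bradi2g47540, of a family that includes the SWEET sugar exporters, stood in S of Bd21 at 7.69, 4.58 and 3.61 CPM at ZT0, at 89.3, 86.8 and 66.1 CPM at ZT8 and at 104, 77.9 and 134 CPM at ZT16. In S of Bd21-3 it stood at 5.26, 4.73 and 7.29 CPM, at 15.9, 18.6 and 23.1 CPM and at 23.14, 23.98 and 19.96 CPM. The libraries of the ecotypes overlapped at dawn and were far apart by day.

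Genes chosen by the same rule for midday (104) and for the evening and night (44) are set beside the dawn genes here. At ZT0, 33 of the midday and 1 of the night genes were lower in S than in LL in Bd21, and 36 and 2 in Bd21-3, next to the 22 and 21 of 41 dawn genes. At ZT16, 12 and 14 dawn genes, 17 and 9 midday genes and 2 and 2 night genes were higher. The difference between these groups was not tested. Levels of cell type markers are given beside these results. The summed level of the 6 mesophyll genes ran from 15659 to 40857 CPM over the LL libraries and from 1161 to 15941 CPM over the S libraries, that of the 6 vascular genes from 219 to 673 CPM and from 17.9 to 223 CPM, and that of the 15 guard cell genes from 295 to 387 CPM and from 273 to 446 CPM. The 3 root genes summed to 1.87 to 11.3 CPM in LL and 1.03 to 125 CPM in S, and the hypoxia list to 1683 to 2622 CPM in LL and 5557 to 44509 CPM in S. Of the root genes, 2 matches of a phosphate transporter had medians of 0.2817 CPM (Bradi3g27680) and 0.5223 CPM (Bradi3g21013) in LL and 26.46 and 1.551 CPM in S, and Bradi3g12975 had 4.381 CPM in LL and 1.233 CPM in S. The guard cell sum also joins genes that moved apart. Every match of HT1, KAT1, FMA, MYB60 and SLAC1 had a lower median in S than in LL. The more abundant matches of OST1 went both ways, such as Bradi1g21310 from 75 to 96.04 CPM and Bradi1g60720 from 55.72 to 42.32 CPM. At ZT0 S was called lower than LL for 2 of the 5 other mesophyll genes in Bd21 and 3 in Bd21-3, while of the 15 guard cell genes 1 was higher and 1 lower in each ecotype, of the 6 vascular genes 1 was lower in Bd21 and 0 in Bd21-3, and of the root genes 0 were called. Their part in the results was not tested, and in such bulk samples fewer cells of a type and less RNA per cell cannot be told apart.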

How the data were processed

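RNA-seq libraries of aboveground tissue were analysed from 1 deposited table. Per the study's methods, the authors aligned reads of both ecotypes to the Bd21 genome with HISAT2 2.1.0, merged repeat runs with SAMtools 1.12, counted reads per gene with HTSeq and computed CPM with edgeR. The deposited values are CPM per effective library size, a normalized signal whose sums per library ran from 843958 to 1243716, so they were handled as signal rather than as plain CPM. Within a tolerance of 0.001 the values were whole multiples of 1 read, which gave depths of 3896851 to 16044727 reads. The table's columns of the authors' fold changes and p-values were not used.

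Values were taken as log2(CPM + 1), which understates the change of low genes. Genes with at least 1 CPM in 3 libraries were fitted with limma 3.58.1 (limma-trend, R 4.3.3), with 1 term for each of 30 groups over 88 libraries, 1 NG library left out, and Benjamini-Hochberg adjustment over all genes. The p-values set each difference against the spread between libraries of the same group, pooled over the 30 groups. Where the libraries of a group came from a shared tank, this spread leaves out differences between tanks. The fit was tested on simulated data. Alternatives were other pseudocounts, filters, scaling, limits and definitions of dawn and day, edgeR 4.0.16 on whole reads, a replicate block, and leaving out each library.

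The members and gene lists were chosen with earlier results of these data known. Genes named by rule were clock members, the 6 with a symbol and the largest drop of the dawn contrast, up to 4 with the largest rise of S over LL at dawn, up to 2 of each list, those nearest each limit, 3 with the largest called ecotype difference, and the 5 most abundant at ZT0. A further part, members with a called dawn peak in S, held none. Other genes were named after their values were seen.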

Additional observations from a re-analysis of the deposited data

Results flagged for a closer look

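For 5 members the change of the dawn contrast from LL to S differed between the ecotypes in an interaction test (limma, adjusted over all genes). The values are Bd21-3 minus Bd21, and each change was further below 0 in Bd21. CYP79B2 (Bradi5g00980) had 3.81 ± 0.32 (SE), with changes of -4.82 in Bd21 and -1.01 in Bd21-3. Bradi2g57680 had 3.02 ± 0.38, with -3.16 and -0.15. LHY (Bradi3g16515) had 2.45 ± 0.28, with -7.19 and -4.74. Bradi2g47540 had 2.42 ± 0.29, with -4.73 and -2.31. RVE2 (Bradi1g29680) had 2.11 ± 0.23, with -6.13 and -4.02. Each group had 3 libraries, except LL of Bd21 at ZT24 with 2, and 2 of the 5 stayed called under each of 3 other definitions: ZT24 alone as dawn, ZT0 alone as dawn, and ZT20 added to the day. Which 2 stayed called is not given here, and they need not be the same under each definition.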

How the results depend on the processing

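The 87 named results are calls of members in the change of the dawn contrast and in S over LL at ZT0. Of their 6204 values under alternatives 6159 kept the call, 45 lost it and 0 turned direction. Most values came from leaving out 1 library, often outside the groups compared, with 5117 kept and 16 lost. Looser limits of p and size could lose no call. With ZT24 alone as dawn, 24 calls were kept and 14 lost. For the other results direction was not followed. With a log2 limit of 1, members higher at dawn in S of Bd21 went from 0 to 4, those lower in S of Bd21-3 from 4 to 8, those higher at dawn in LL of Bd21-3 from 13 to 21, those higher at the second dawn in S of Bd21 from 4 to 9, and those higher in S at ZT20 in Bd21-3 from 7 to 11. With ZT24 alone as dawn, members higher at dawn in S went from 0 to 2 in each ecotype, those lower in S of Bd21-3 from 4 to 1, those with a lower change in Bd21-3 from 18 to 8, and the ecotype differences from 5 to 2. With ZT0 alone these were 1 higher in S of Bd21, 9 lower in S of Bd21-3 and 2 ecotype differences, and with ZT20 added to the day 2 ecotype differences. With only S and LL of an ecotype fitted, members lower in S of Bd21 were 2 at ZT8, 0 at ZT16 and 3 at ZT20, and 0 were lower at the second dawn in LL. With an adjusted p limit of 0.05, members lower in S of Bd21 were 2 at ZT16 and 17 at ZT24, 8 were lower at the second dawn in LL of Bd21, and in Bd21-3 6 were higher in S at ZT0 and 11 lower at ZT8, with 9 ecotype differences. Members lower at the second dawn in LL were 0 in Bd21 and 2 in Bd21-3 with a pseudocount of 0.25, and 1 in Bd21 with edgeR. A fold limit of 3 gave 85 members and one of 8 gave 13. Without 1 library, members lower in S of Bd21 ran from 3 to 6 at ZT8 and from 0 to 1 at ZT16, and those lower at the second dawn in LL of Bd21 from 0 to 2. The cause of these moves was not tested.

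Replicate numbers did not pair the samples: over 29 pairs of same-numbered S and LL libraries the correlation of deviations ran from -0.66 to 0.44, with 5 over 0.1. With the replicate number as a block, 7 members were lower at ZT20 in Bd21 without it and 6 with it, 11 and 10 at ZT24, and the 87 named results kept their calls. Genes of few reads, such as Bradi2g57680 and CYP79B2 in S, are limited by depth.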

Other observations

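Part of the members varied together among libraries of the same group. The SD within groups on the log2 scale had a median of 0.30 over the members, from 0.18 to 1.11, beside 0.27 over all genes tested. For 11 members the deviations from the group mean had a Pearson r of at least 0.7 with those of BAM3 over 88 libraries, among them OXS3 with 0.95, BAM9 with 0.94, OCT2 with 0.91 and CIPK12 with 0.89, and their SDs ran from 0.45 to 0.85. Bradi3g51757 had -0.74 and Bradi4g37609 -0.71. These points share libraries, and the values are a description.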
